A study of Mus musculus with 6 samples.

Results

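The genes described here are 9 members of the proteolytic system that remodels the extracellular matrix: the matrix metalloproteinases (MMPs) Mmp3, Mmp9, Mmp12, Mmp13 and Mmp14, the tissue inhibitors Timp1 and Timp2, the urokinase gene Plau and the urokinase receptor gene Plaur. They were chosen by symbol, and all 9 were found among the 26096 genes measured. The measurements are RNA sequencing profiles of wild-type mouse microglia, the macrophages of the brain. In 3 samples the microglia had been given medium from bone marrow-derived macrophages undergoing ferroptosis, an iron-dependent death by lipid peroxidation (labelled FeM CM-treated), and in 3 samples they had been given medium from normal bone marrow-derived macrophages (labelled C CM-treated). The sources used here do not say how ferroptosis was induced, how long the microglia were exposed or where they came from. Nothing in the labels shows whether the 3 samples of a group were separate cultures, so the p-values rest on a spread that may be technical.

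Metalloproteinases are zinc enzymes made as inactive precursors, which become active when their prodomain is displaced or cut away. TIMPs bind the active enzymes and block them. Urokinase, bound to its receptor on the cell surface, turns plasminogen into plasmin, which degrades fibrin and can activate several MMP precursors. In the brain, microglial MMP9, MMP3 and MMP12 are known for cleaving the basal lamina and tight junction proteins of the blood vessel wall and for processing cytokines.

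With ferroptotic medium, transcripts of the collagenase Mmp13, the elastase Mmp12, the gelatinase Mmp9 and the urokinase receptor Plaur were higher (n = 3 per group), Mmp13 by 13.2-fold, Mmp12 by 5.07-fold, Mmp9 by 2.86-fold and Plaur by 2.37-fold. Urokinase itself, Plau, fell to 0.531 of its level with normal medium. Timp1 rose by 1.41-fold, with a call that depended on single libraries, and Timp2, Mmp3 and Mmp14 had few reads and did not pass a test. Of the 9 members, 7 passed the low-value filter, which asked for 10 or more normalized counts in 3 or more libraries, and Mmp3 and Mmp14 did not. Mmp9, Mmp12, Mmp13, Timp1, Plau and Plaur were above it in all 6 libraries. In a limma fit over 15597 genes with Benjamini-Hochberg adjustment, 5 of these 7 were higher and 1 was lower at an adjusted p under 0.05. Over all genes tested the same rule called 42.5% of genes, 19.7% higher and 22.8% lower. The groups did not overlap for 6 of the 7 members, as for 53.7% of all genes tested. Of the 7, 4 were called and at least 2-fold higher, against 3.95% of all genes tested, and 0 were called and at least 2-fold lower, against 3.7%. The members were chosen with earlier results of these data known, so these shares are a description and not a test. The median log2 fold change of all genes tested was -0.00502, and the median absolute value was 0.288.

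The libraries held 39624311 to 41953603 reads assigned to genes with ferroptotic medium and 43419446 to 50557794 with normal medium, as worked out from the deposited values. Of the markers shared by microglia and macrophages, Csf1r was the highest, and Cd68 and Tyrobp were also abundant. Aif1 (159 normalized counts with ferroptotic and 203 with normal medium) and Cx3cr1 (222 and 335) were much lower. The 10 listed summed to between 139303 and 139982 normalized counts with ferroptotic medium and between 159079 and 163519 with normal medium. Of the 10, 3 were higher and 4 lower (70.0% called, against 42.5% of all genes tested). Their log2 fold changes ran from -1.36 for Trem2 to 0.73 for Adgre1. The homeostatic markers that set resident microglia apart were nearly absent, with 5 of 7 analysed and sums of 16.4 to 24.5 normalized counts with ferroptotic medium and 9.79 to 14.3 with normal medium, so the shared macrophage markers were present and those specific to resident microglia were close to 0. In bulk RNA, fewer cells that express a gene and less RNA per cell cannot be told apart.

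Promoter sequences of 7 of the 9 members were found in the RefSeq table of GRCm38.p6, and Mmp9 and Plau had no entry. The sources used here do not name the build behind the deposited values. The 120 bases before the start are shown, 5′ to 3′, for the 3 MMP genes of a cluster on chromosome 9, for Plaur and, as a comparison, for Timp1. Capitals mark matches to TGANTCA, a letter pattern of AP-1 (FOS and JUN dimers) searched with any base at N. The matches were TGACTCA in Mmp13 and Plaur and TGAGTCA in Mmp12 and Mmp3. The windows are chr9:7272394-7272513 for Mmp13, chr9:7347254-7347373 for the downstream of the 2 annotated starts of Mmp12, chr9:7445702-7445821 for Mmp3, chr7:24462363-24462482 for Plaur and chrX:20870046-20870165 for Timp1, all on the plus strand.
Mmp13: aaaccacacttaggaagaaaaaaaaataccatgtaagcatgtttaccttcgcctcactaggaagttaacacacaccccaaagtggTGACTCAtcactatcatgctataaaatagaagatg
Mmp12: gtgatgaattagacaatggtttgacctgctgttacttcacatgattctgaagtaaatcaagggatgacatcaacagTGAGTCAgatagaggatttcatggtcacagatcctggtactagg
Mmp3: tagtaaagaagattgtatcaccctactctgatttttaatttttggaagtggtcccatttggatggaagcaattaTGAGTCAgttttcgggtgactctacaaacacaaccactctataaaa
Plaur: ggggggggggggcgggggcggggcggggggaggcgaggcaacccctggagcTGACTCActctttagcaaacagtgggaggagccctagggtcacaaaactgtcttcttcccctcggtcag
Timp1: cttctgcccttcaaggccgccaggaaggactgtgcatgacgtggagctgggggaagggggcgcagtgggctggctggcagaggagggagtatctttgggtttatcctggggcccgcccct
The match lay at positions -35 to -29 in Mmp13, -44 to -38 in Mmp12, -46 to -40 in Mmp3 and -69 to -63 in Plaur, counted back from -1, the base before the start. The first bases after the RefSeq starts of Plaur and Mmp14 were not found in the GENCODE M21 transcripts of these genes, unlike those of the other starts examined, so the Plaur position holds for the RefSeq start alone. In these 4 members it was present once in the 300 bases examined, 250 before and 50 after the start. These letters were not in that window in Mmp14, Timp1, Timp2 or the upstream start of Mmp12, and of these only Timp1 is shown. Both strands were searched, and 7.81% of the 32851 promoters in the table held the letters, with any base at N. Of the 619 tested genes with the letters, 27.3% were called higher, against 22.4% of the 9874 tested genes with a promoter sequence. AGGAAGT, a letter pattern of ETS factors, was present in Mmp13, Timp1 and the upstream start of Mmp12, and in 9.35% of all promoters. The NF-kB pattern was matched at the upstream start of Mmp12 (8.46% of all promoters), and TGACNNNGC, the antioxidant response element, in Timp2 (12.4%). A match describes letters in a window and not a bound site.

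Among the proteases, Mmp13, the main interstitial collagenase of the mouse, moved furthest. It had 430, 448 and 439 normalized counts in the 3 libraries with ferroptotic medium, against 29.4, 32.0 and 36.2 with normal medium. The groups were separated by a wide margin, and the spread within each was small. The log2 fold change was 3.72 (SE 0.145; limma adjusted p = 2.33e-07), which placed Mmp13 at rank 28 from the largest rise among 15597 genes. Mmp12, the macrophage elastase, had 302, 271 and 347 normalized counts with ferroptotic medium, against 56.8, 58.9 and 62.7 with normal medium. Its groups did not overlap either, and its log2 fold change was 2.34 (SE 0.147; limma adjusted p = 3.58e-06). In GENCODE M21 the exons of Mmp12 share 157 bases with Mmp1b on the opposite strand, and Mmp1b was not analysed here.

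Mmp9, a gelatinase that cleaves denatured collagen and basement membrane collagen, had the highest level per length of the 5 MMPs. It had 4123, 3707 and 3842 normalized counts with ferroptotic medium and 1263, 1375 and 1444 with normal medium. The lowest library with ferroptotic medium was far above the highest with normal medium, and the log2 fold change was 1.52 (SE 0.065; limma adjusted p = 3.92e-07). Mmp14, a membrane-anchored MMP that activates other MMP precursors, had 11, 6 and 7 reads with ferroptotic medium and 2, 3 and 4 with normal medium. Its groups did not overlap, but it was below the filter, and when the minimum was lowered to 1 normalized count its adjusted p was 0.0769 (limma; log2 difference 1.32, SE 0.484). Mmp3, stromelysin 1, had 5, 0 and 6 reads with ferroptotic medium and 3, 0 and 0 with normal medium, so it was barely detectable in either group although it stands in the same gene cluster as Mmp12 and Mmp13.

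**Figure D1:**
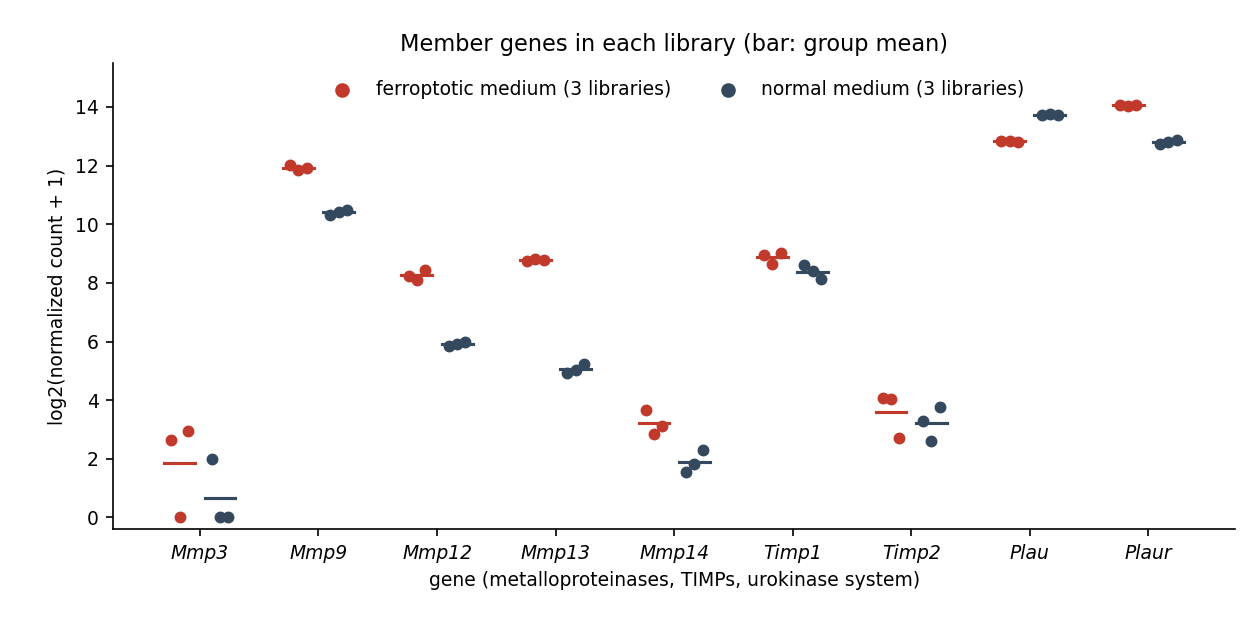
Each point is a library and each bar a group mean, on the y axis as log2(normalized count + 1), for the 9 genes on the x axis, with ferroptotic medium in red and normal medium in dark blue. The groups of Mmp9, Mmp12, Mmp13, Plau and Plaur stand far apart, those of Timp1 lie side by side, and Mmp3 and Timp2 overlap.

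Of the inhibitors, Timp1 had 490.2, 401 and 518 normalized counts with ferroptotic medium and 389, 339.8 and 277 with normal medium. The lowest library with ferroptotic medium lay just above the highest with normal medium, and the log2 fold change was 0.49 (SE 0.149; limma adjusted p = 0.0269). The adjusted p was 0.0784 without ferroptotic replicate 1, 0.0892 without ferroptotic replicate 3, 0.0572 without normal replicate 2 and 0.08 without normal replicate 3. The Timp1 gene lies inside the model of Syn1, a synapsin gene on the opposite strand, with no shared exonic bases in GENCODE M21, and the sources used here do not say whether counting used strand. Syn1 had 1248, 1167 and 1284 normalized counts with ferroptotic medium and 749, 759 and 681 with normal medium (log2 fold change 0.76, SE 0.0733; limma adjusted p = 5.22e-05), and its part in the Timp1 values was not tested. Timp2, which also takes part in MMP2 activation on the cell surface, had 15, 15 and 5 reads with ferroptotic medium and 9, 6 and 13 with normal medium. These values overlapped, and the 95% interval of the log2 fold change ran from -0.96 to 1.73 (limma adjusted p = 0.647). In GENCODE M21 the model of Timp2 overlaps that of Cep295nl on the same strand, with no shared exonic bases, and Cep295nl was not analysed here. In the authors' deposited table the false discovery rate was 0.00399 for Timp1, 0.822 for Timp2, 0.253 for Mmp14 and 0.633 for Mmp3.

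The urokinase system split between ligand and receptor. Plau had 7413, 7263 and 7120.4 normalized counts with ferroptotic medium, against 13609, 13858 and 13602 with normal medium. Plaur had 17271, 16590.3 and 17143 normalized counts with ferroptotic medium, against 6905, 7169.5 and 7470.4 with normal medium. Both pairs of groups were far apart relative to their spread, in opposite directions. The log2 fold change was -0.91 for Plau (SE 0.0307; limma adjusted p = 1.08e-07) and 1.24 for Plaur (SE 0.0374; limma adjusted p = 6.42e-08).

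Ratios of 2 genes within a library hardly depend on how libraries were scaled, and 9 such pairs were compared. The log2 ratio of Plaur to Plau was 1.22, 1.19 and 1.27 with ferroptotic medium, against -0.98, -0.95 and -0.86 with normal medium, a difference of 2.16 (SE 0.041). The ratio to Timp1 was higher with ferroptotic medium by 3.23 for Mmp13 (SE 0.26), 1.85 for Mmp12 (SE 0.19) and 1.02 for Mmp9 (SE 0.22). In these libraries the transcripts of these proteases were thus higher relative to that of the inhibitor. The ratio of Mmp13 to Mmp9 differed by 2.20 (SE 0.071) and that of Mmp12 to Mmp13 by -1.38 (SE 0.12). In these 6 pairs the groups did not overlap, and the two-sided exact permutation test gave p = 0.1, the smallest that 3 against 3 allows (0.15 after Benjamini-Hochberg adjustment over the 9 pairs). The groups overlapped for Mmp3 to Timp1 (difference 0.71, SE 0.99, exact permutation p = 0.5), Mmp14 to Timp2 (0.93, SE 0.55, exact permutation p = 0.2) and Timp1 to Timp2 (0.11, SE 0.68, exact permutation p = 0.9).

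**Figure D2:**
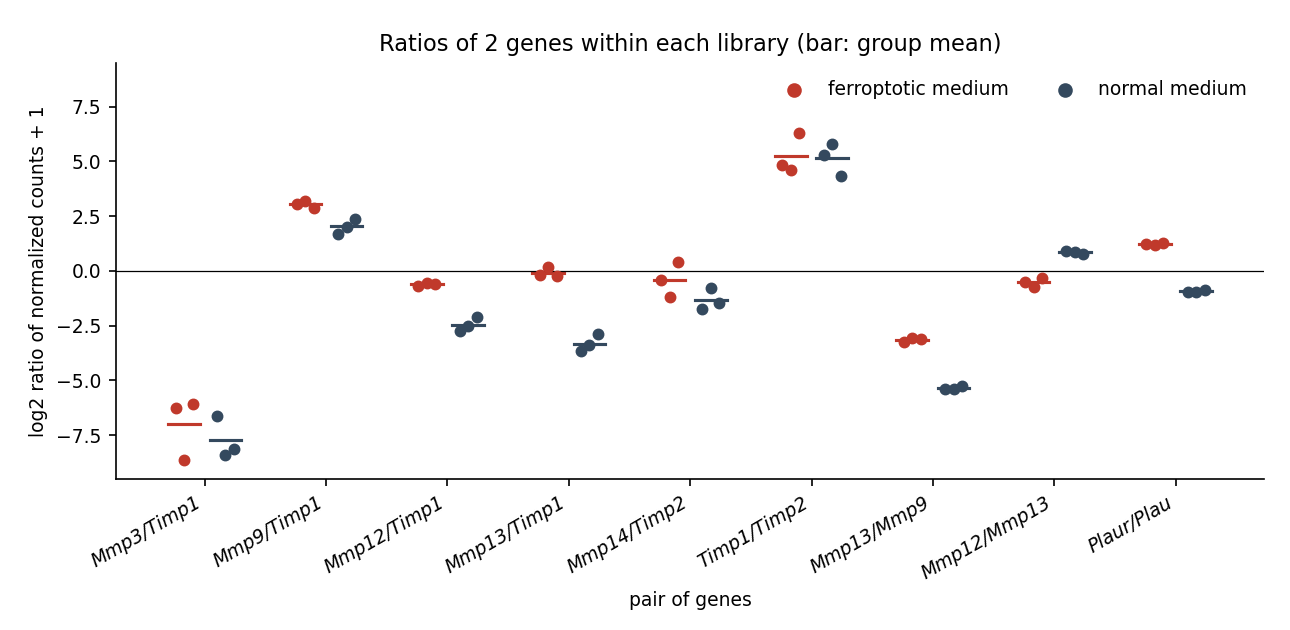
The y axis is the log2 ratio of the normalized counts (plus 1) of 2 genes in the same library, for the 9 pairs on the x axis, with ferroptotic medium in red, normal medium in dark blue and bars at the group means. The ratio of Plaur to Plau is above 0 in all 3 libraries with ferroptotic medium and below 0 in all 3 with normal medium.

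Levels were compared between members as RPKM, reads scaled to the length of the merged exons and to the library total, worked out here. For the 4 members that the authors' deposited table gives as FPKM, these were 12.1% to 15.0% above the authors' values. With ferroptotic medium the order was Plaur (150.3 ± 3.23 RPKM), Plau (71.0 ± 2.28), Mmp9 (25.4 ± 1.51), Timp1 (12.2 ± 1.5), Mmp13 (3.80 ± 0.0939) and Mmp12 (0.979 ± 0.109; SD, n = 3). With normal medium Plau came first (136 ± 1.92 RPKM), before Plaur (64.3 ± 2.24), Mmp9 (9.01 ± 0.567), Timp1 (8.86 ± 1.52), Mmp13 (0.285 ± 0.0289) and Mmp12 (0.193 ± 0.00866; SD, n = 3). Plau and Plaur thus changed places between the media, while Mmp9 and Timp1 did not differ beyond their spread with normal medium. Timp2, Mmp3 and Mmp14 were at or under 0.0732 RPKM in both group means, and neighbours in their order overlapped. Some levels rest on the gene model. The merged exons of Mmp12 are 7237 bases long, and with its principal transcript of 3607 bases Mmp12 was at 1.96 RPKM with ferroptotic medium and 0.386 RPKM with normal medium, the second of which is above Mmp13. In the same way Plaur was at 261 RPKM with ferroptotic medium and 112 RPKM with normal medium, and Mmp14 at 0.0761 RPKM with ferroptotic medium and 0.0253 RPKM with normal medium.

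Summed over the 5 MMPs, the level was 32.0, 29.2 and 29.7 RPKM with ferroptotic medium, against 8.88, 9.62 and 10.04 RPKM with normal medium. Mmp19 and other MMPs outside the 9 members were not part of this sum. The sum of Timp1 and Timp2 was 12.97, 10.6 and 13.3 RPKM with ferroptotic medium, against 10.35, 9.03 and 7.35 RPKM with normal medium. The MMP sum over the TIMP sum was thus 2.48 ± 0.263 with ferroptotic medium and 1.10 ± 0.256 with normal medium (SD, n = 3). Mmp9 made up 83.9% ± 0.838 of the MMP sum with ferroptotic medium and 94.7% ± 0.247 with normal medium, and Mmp13 made up 12.6% ± 0.832 with ferroptotic medium and 2.99% ± 0.132 with normal medium (SD, n = 3).

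Mmp13, Mmp12 and Mmp3 belong to a cluster of metalloproteinase genes on chromosome 9, in which GENCODE M21 places 9 protein-coding MMP genes next to each other. The 6 others, Mmp1b, Mmp10, Mmp8, Mmp27, Mmp20 and Mmp7, were not analysed here. Mmp13 stands at the end next to Dcun1d5, Mmp12 follows it, and Mmp3 lies beyond Mmp1b. Of the neighbours outside the cluster, Dcun1d5 had a log2 fold change of 0.052 (limma adjusted p = 0.358) and Dync2h1, a dynein heavy chain gene, 0.61 (SE 0.0477; limma adjusted p = 1.37e-05). On the other side, Birc3, an inhibitor of apoptosis, rose by 0.63 (SE 0.0494; limma adjusted p = 1.41e-05), while Birc2 had a log2 fold change of 0.155 (limma adjusted p = 0.0802, and 0.0256 with quantile normalization). Tmem123 had a log2 fold change of 0.20 (limma adjusted p = 0.0425), and its adjusted p was 0.0797 to 0.123 without ferroptotic replicate 2 or 3 or any of the 3 normal replicates. The third neighbour on the first side, Ddi1, was not analysed here.

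**Figure D3:**
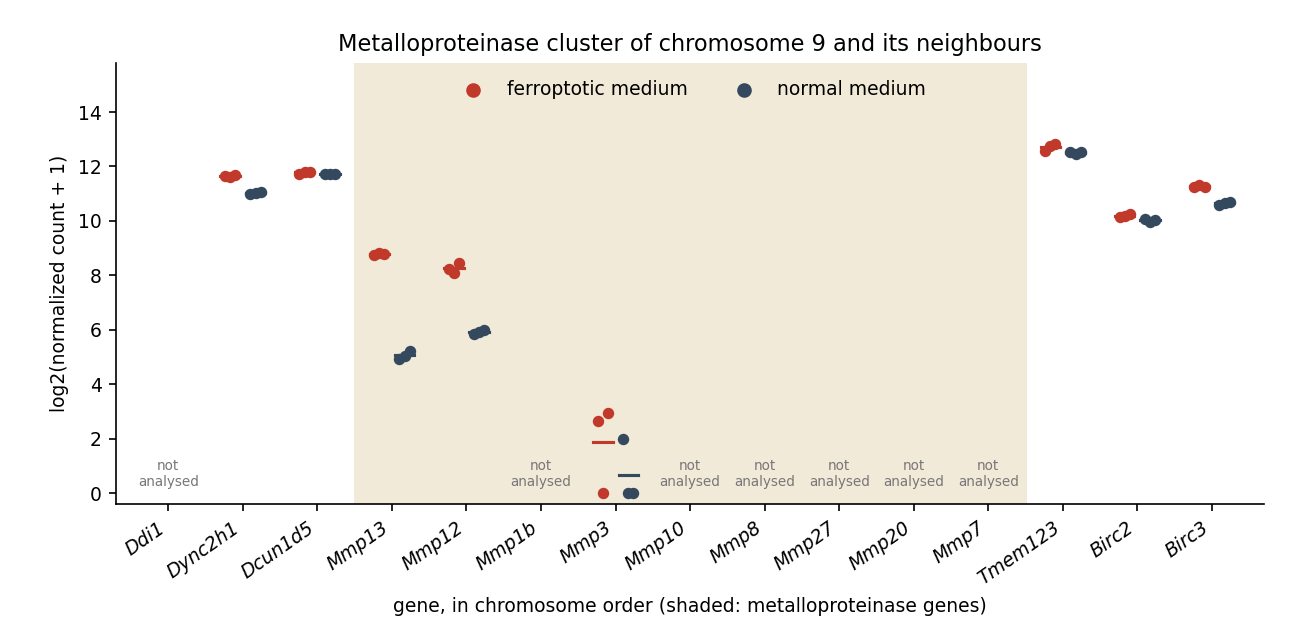
Genes stand on the x axis in their chromosome order, with the metalloproteinase genes shaded, and the y axis is log2(normalized count + 1) per library, with ferroptotic medium in red, normal medium in dark blue and bars at the group means. The wide gaps between the media are at Mmp13 and Mmp12, and genes marked as not analysed carry no value here.

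Of the other genes of plasminogen activation and its receptors, 14 were listed, 12 were analysed and 6 were tested, with 2 higher and 3 lower. The share called was 83.3%, against 42.5% of all genes tested. Plgrkt, a plasminogen receptor, rose (0.73 on the log2 scale, SE 0.0643; limma adjusted p = 2.96e-05). S100a10, a plasminogen-binding partner of annexin A2, fell (-0.61, SE 0.0307; limma adjusted p = 9.6e-07), and so did Lrp1, an endocytic receptor that clears proteases from the cell surface (-0.65, SE 0.0392; limma adjusted p = 2.81e-06). Serpinb2, a serpin that inhibits urokinase and that was named after its values were seen, had 149, 147 and 184 normalized counts with ferroptotic medium and 21.5, 15.98 and 0 with normal medium (log2 fold change 4.46, SE 1.30; limma adjusted p = 0.0455). Its adjusted p was 0.109, 0.107 and 0.111 without ferroptotic replicate 1, 2 or 3 and 0.075 without normal replicate 2, and it was 0.0759 with no filter and 0.0702 with a pseudocount of 0.5. The size of the change rests on the normal library at 0: without normal replicate 3 the log2 fold change was 3.03 (SE 0.239; limma adjusted p = 4.3e-05), and with a pseudocount of 5 it was 3.54. Anxa2, the annexin partner of S100a10, also named after its values were seen, fell by 0.18 on the log2 scale (SE 0.0262; limma adjusted p = 0.000607). Plat, the tissue-type activator, had 21 reads over the 6 libraries.

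Most other metalloproteinases were scarce, but Mmp19 had 2529 reads over the 6 libraries, against 1343 for Mmp13 and 1054 for Mmp12. Of 18 listed, 9 were analysed and 3 were tested, and 0 of 3 passed limma at an adjusted p of 0.05, at an unadjusted p of 0.05, or with limma-voom. Over all genes tested 42.5% passed at the adjusted p, and 3 genes are too few to set against that share. Mmp19 had 337, 574 and 485 normalized counts with ferroptotic medium and 386, 325 and 424 with normal medium (log2 fold change 0.27, SE 0.203; limma adjusted p = 0.328), and without ferroptotic replicate 1 its adjusted p was 0.0286. Mmp2, a second gelatinase, had 48.9, 133 and 46.5 normalized counts with ferroptotic medium and 46.0, 45.4 and 52.9 with normal medium, so 1 library stood apart from the other 5. Of 9 other inhibitors of metalloproteinases 3 were analysed and all were below the filter, among them the membrane-anchored Reck, with 12, 12 and 5 reads with ferroptotic medium and 5, 0 and 3 with normal medium.

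Of 15 activators, inducers and binding partners of MMPs, 12 were tested, 6 were higher and 3 were lower. Over all genes tested, 42.5% were called, 19.7% higher and 22.8% lower. Furin, the convertase that cuts the prodomain of MMP14, had 18539, 17209 and 17984 normalized counts with ferroptotic medium and 5246, 5266 and 5191 with normal medium (1.77 on the log2 scale, SE 0.0355; limma adjusted p = 8.61e-09). Lcn2, a lipocalin that binds MMP9 and shields it from degradation, rose by 3.29 (SE 0.107; limma adjusted p = 2.38e-07). The cathepsin gene Ctsl rose by 0.26 (SE 0.028), and Cd44, a hyaluronan receptor that docks MMP9 at the cell surface, fell by 0.36 on the log2 scale (SE 0.0443; limma adjusted p = 0.000228). Named after their values were seen, the other genes that fell were the integrin chain gene Itgb1 (-0.17, SE 0.0421) and the cathepsin gene Ctsb (-0.12, SE 0.0294).

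Of 15 AP-1 and ETS factor genes, all of which were tested, 7 were higher and 1 was lower, and the median of the 15 was 0.36 on the log2 scale. The share called was 53.3%, against 42.5% of all genes tested (19.7% higher and 22.8% lower). Fosl1 led with 0.91 (SE 0.0735), followed by Jund (0.66, SE 0.0461), Fosl2 (0.62, SE 0.0499) and Junb (0.59, SE 0.04), with limma adjusted p-values at or below 1.69e-05. Elk3, an ETS factor named after its values were seen, fell by 0.41 on the log2 scale (SE 0.0394; limma adjusted p = 4.59e-05). Fos itself had 673 ± 53.6 normalized counts with ferroptotic medium and 607 ± 54.2 with normal medium (SD, n = 3; limma adjusted p = 0.249). Of 24 matrix substrates, 20 were analysed and 9 tested, with 3 higher and 2 lower (55.6% called, against 42.5% of all genes). The osteopontin gene Spp1 (0.53, SE 0.0217), the laminin chain gene Lamc1 (0.53, SE 0.0497) and tenascin C, Tnc (0.38, SE 0.103; limma adjusted p = 0.0163, and 0.052 without normal replicate 3), rose, and the nidogen gene Nid2 (-1.18, SE 0.155) and agrin, Agrn (-0.40, SE 0.0462), fell. With quantile normalization Spp1, the most abundant gene of every library, could show no change by construction.

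**Figure D4:**
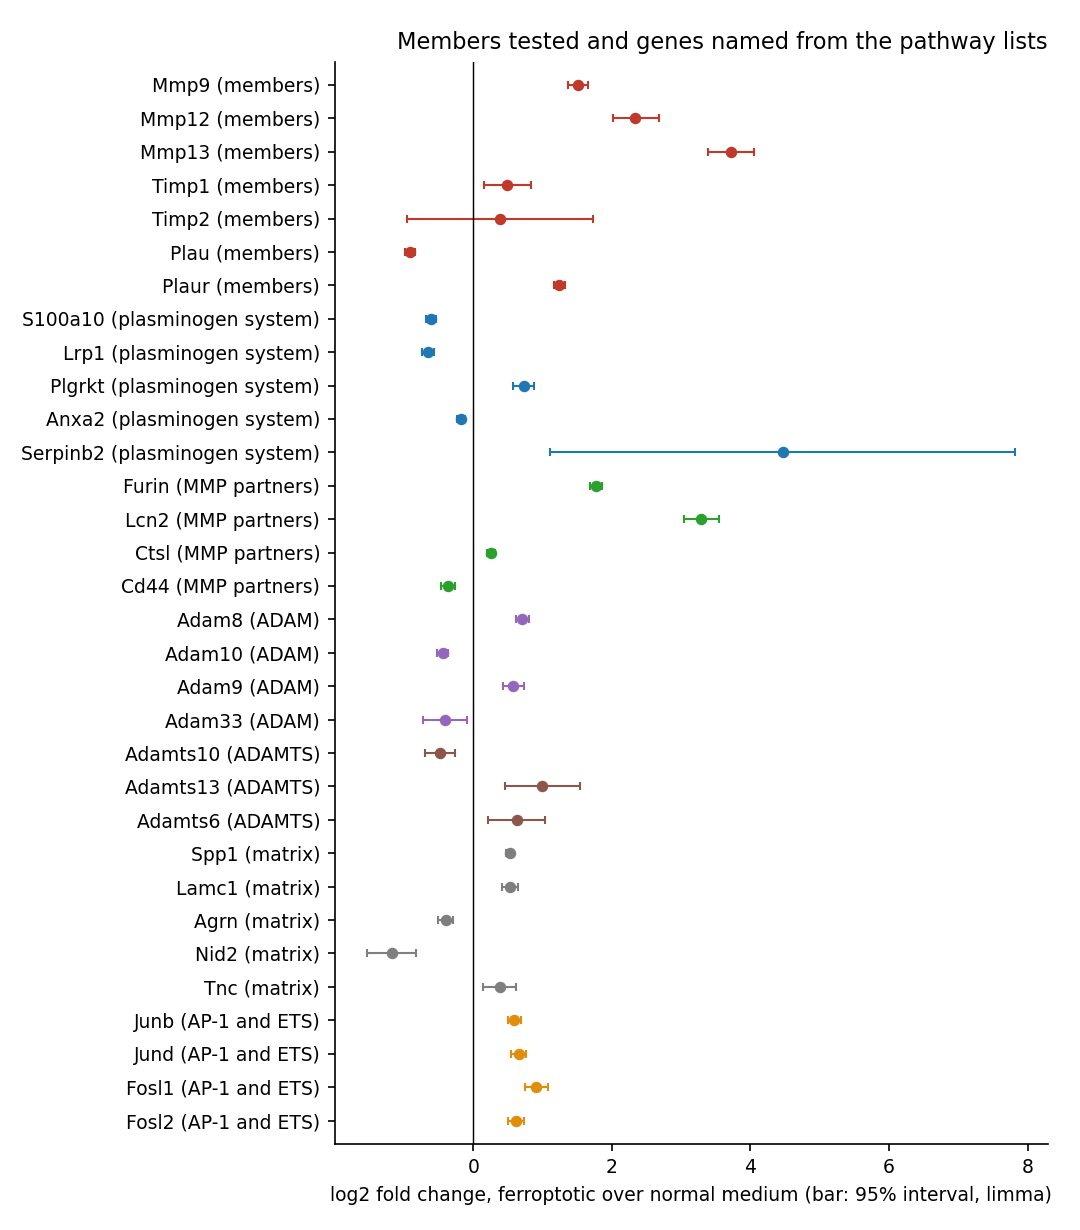
Points are log2 fold changes of ferroptotic over normal medium on the x axis, with 95% intervals from limma, for the 7 members tested and for the genes named from each pathway list on the y axis. Mmp13, Lcn2 and Mmp12 lie far to the right, Plau lies to the left, and the interval of Timp2 crosses 0. Serpinb2 has the widest interval, and without normal replicate 3, which is at 0, its point would lie at 3.03, below Mmp13 (3.80) and Lcn2 (3.18) in the same libraries.

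Markers of other cells that can make MMPs were examined beside these values. Of 10 neutrophil markers, 3 were analysed, and they summed to 136 to 159.5 normalized counts with ferroptotic medium and 9.25 to 15.7 with normal medium. Most of this was S100a8, which had 143.5 ± 14.1 normalized counts with ferroptotic medium and 13.2 ± 3.46 with normal medium (SD, n = 3; limma adjusted p = 1.3e-05), while the granule enzyme genes Mpo and Elane had 7 and 3 reads over the 6 libraries. Of 10 fibroblast and mural markers, 7 were analysed, and they summed to 156 to 237 normalized counts with ferroptotic medium and 68.5 to 89.1 with normal medium. Of 3 tested, 2 were higher, Acta2 and Dcn, against 19.7% of all genes tested. The collagen genes Col1a1, Col1a2 and Col3a1 had 10, 1 and 6 reads over the 6 libraries. The part of such cells in the values of Mmp9, Mmp12, Mmp13 and Timp1 was not tested.

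Likeness to other genes was measured as the root-mean-square difference of centred log2 values over the 6 libraries, which mostly reflects the size of the change between media. Closest to Mmp13 were Chac1 (0.121 log2 units) and Hmox1 (0.122), and closest to Mmp9 were Errfi1 (0.0617) and Mllt11 (0.0619). Closest to Mmp12 were Rdh12 (0.0798) and 4930519P11Rik (0.0817), and closest to Timp1 were Zfp954 (0.0518) and Zfp637 (0.0652). The nearest genes to Plaur were Slc3a2 (0.0280) and Cars (0.0329), and those to Plau were Diaph3 (0.0155) and Ccnd1 (0.0236). For Timp2 the nearest were K230010J24Rik (0.155) and AC140448.1 (0.158).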

How the data were processed

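Total RNA was made into libraries with an mRNA kit, amplified by PCR and sequenced on an Illumina NovaSeq instrument, per the labels' protocols. The submitters' processing notes name R 3.4.3, DESeq2 1.18.1, HISAT2 2.1.0 and fastp 0.17.1. The sources used here do not name the genome build, annotation or counting tool. The authors deposited log2 values per library for 26096 genes, with group means, log2 fold changes, p-values and false discovery rates; the p-values were not used. A shorter deposited table of 1699 genes adds FPKM.

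On the linear scale, 100% of each library's values were whole multiples of the worth of 1 read, within 0.01. The values are thus log2(normalized count + 1), and fold changes on that scale understate the change of low genes. Whole reads and depths were worked out from these steps and may be rounded estimates.

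limma 3.58.1 (trend, robust, two-sided) in R 4.3.3 was fitted on the log2 values with medium as the term, for 15597 genes that reached 10 normalized counts in 3 or more libraries. The planned edgeR test applied to raw counts and was not used, as the deposited unit is log2. The fit was also run on simulated data with independent libraries and the same relative spread for all genes. That run cannot show the error rate in these samples, whose independence is not known. The per-length values were checked on 966 genes of the shorter table: log2 of normalized counts per kilobase over FPKM had quartiles of -0.01 and 0.01 around its median.

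The members and gene lists were chosen with earlier results of these data known. Named genes are the 9 members, up to 4 list members with the smallest p-values (5 where 5 or fewer passed), the chromosome 9 cluster with 3 neighbours on each side, overlapping genes and the 2 most alike genes per member. GENCODE M21, which holds 99.8% of the gene IDs, was used for exon lengths, gene order and overlaps. Libraries of a group were further apart than sampling noise allows (chi-square per degree of freedom 16.6 to 23.3). Alternatives were quantile normalization, limma-voom with TMM, filters, pseudocounts, limma without trend and robust, a replicate block and leaving out each library. Same-numbered libraries did not deviate together. A planned gene of the plasminogen list, with its ratio to a member, is not reported here.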

Additional observations from a re-analysis of the deposited data

How the results depend on the processing

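The number of genes past the threshold was 6629 and lay between 5798 and 6705 in the 14 alternatives. Mmp9, Mmp12, Mmp13, Plau and Plaur kept their direction and their call in all 14, with adjusted p-values of at most 0.000173 and log2 fold changes of 1.46 to 1.57 for Mmp9, 2.25 to 2.43 for Mmp12, 3.57 to 3.80 for Mmp13, -0.93 to -0.90 for Plau and 1.22 to 1.27 for Plaur. Timp1 lost its call in 5 of the 14: with limma without trend and robust its log2 fold change was 0.491 (adjusted p = 0.0657), and over the alternatives that leave out a library it was 0.361 to 0.605. Timp2 passed in none of the 14, and neither did Mmp3 or Mmp14 in the 2 alternatives with a lower filter. The count of other metalloproteinases past the threshold, 0, was 0 to 1 over the alternatives that leave out a library. With a pseudocount of 5 the difference in the log2 ratio of Mmp13 to Mmp9 was 2.055 in place of 2.203. With the replicate block the number of genes past the threshold was 6226, Timp1 had an adjusted p = 0.0435, and Serpinb2 and Adam33 lost their calls (adjusted p = 0.0736 for Serpinb2 and 0.0763 for Adam33). The deviations of same-numbered libraries from their group means had correlations of 0.00859, -0.0196 and -0.0393. No shared deviation by number was seen, but these values cannot show that the samples were unpaired. Per-length levels with the principal transcript, added after the data were seen, put the ratio of the MMP sum to the TIMP sum at 2.79 ± 0.287 with ferroptotic medium and 1.23 ± 0.287 with normal medium (SD, n = 3). Depth limits Mmp3, Mmp14 and Timp2, which had 14, 33 and 63 reads over the 6 libraries.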

Other observations

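Of 11 ADAM protease genes, which shed proteins from the cell surface, 10 were analysed and 7 tested, with 2 higher and 2 lower. The share called was 57.1%, against 42.5% of all genes tested. Adam8, a protease of activated leukocytes, had 67245, 62345 and 60293 normalized counts with ferroptotic medium and 38792, 37553 and 39588 with normal medium (log2 fold change 0.71, SE 0.0414; limma adjusted p = 2.61e-06), and Adam9 rose by 0.58 (SE 0.0672; limma adjusted p = 0.00024). Adam10, which sheds many neuronal and immune receptors, fell by 0.44 on the log2 scale (SE 0.0361; limma adjusted p = 1.78e-05), while Adam17, the main shedding enzyme of TNF, stood at -0.16 on the log2 scale (SE 0.0766; limma adjusted p = 0.145). Adam33 had a log2 fold change of -0.41 (limma adjusted p = 0.0435), with an adjusted p of 0.130, 0.0586, 0.128 and 0.111 without ferroptotic replicate 2 or 3 or normal replicate 2 or 3.

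Of 19 ADAMTS protease genes, secreted enzymes of which several cleave proteoglycans, 13 were analysed and 5 tested, with 2 higher and 1 lower. The share called was 60.0%, against 42.5% of all genes tested. Adamts13, known for cutting von Willebrand factor, had 99.96, 136 and 104 normalized counts with ferroptotic medium and 41.1, 61.4 and 68.5 with normal medium (log2 fold change 1.00, SE 0.238; limma adjusted p = 0.00906). Adamts10 fell by 0.48 on the log2 scale (SE 0.0951; limma adjusted p = 0.00342). Adamts6 was higher by 0.63 on the log2 scale (SE 0.181; limma adjusted p = 0.0215), with an adjusted p of 0.0555 to 0.0683 without ferroptotic replicate 1 or 2 or normal replicate 1 or 2. Of endothelial markers 1 of 5 tested was higher, and of astrocyte markers 2 of 4 were higher and 1 was lower. Of oligodendrocyte markers 1 of 5 was higher and 3 were lower. Of 7 neuron markers listed, 4 were analysed and 2 tested, Syn1 and Tubb3, which were higher. Map2 (21 reads over the 6 libraries) and Nefl (3 reads) were below the filter, with log2 differences of -1.95 and -0.61. Over all genes tested, 19.7% were higher and 22.8% lower. The highest of each were Pecam1, Aldoc, Mbp and Syn1, and their part in the values of the MMP and urokinase genes was not tested.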
